A study of Mus musculus with 8 samples.

Results

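Haem synthesis and breakdown were followed through 9 genes of the mouse pathway, measured by 14 of the 18443 probe sets on the arrays. They were Alas1, Alad, Uros, Urod, Cpox, Ppox and Fech for synthesis, and Hmox1 and Blvra for breakdown. The members were all probe sets whose only gene symbol in the platform annotation was 1 of these 9, and no probe set (0) that named 1 of them together with another gene had to be set aside. RNA came from enterocytes, the absorptive cells that line the small intestine, of male C57BL/6 mice aged 2.5 to 3.0 months on a standard diet. WT littermates were compared with IE-Cpr-null mice, in which NADPH-cytochrome P450 reductase (Cpr) is deleted in the intestinal epithelium. The labels do not name the promoter that drives the deletion. There were 4 arrays per genotype, each hybridised with RNA pooled from 2 mice (8 mice per genotype). The labels name no agent given to either group.

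Haem is built from glycine and succinyl-CoA by a chain of enzymes that starts in the mitochondrion, runs through the cytosol and ends in the mitochondrion, where ferrochelatase inserts iron into the finished porphyrin ring. The first enzyme, ALAS1, sets the pace in cells other than red cell precursors, and free haem holds its amount down. Microsomal P450 enzymes carry haem and take their electrons from Cpr, and so does haem oxygenase, which opens the haem ring to biliverdin, iron and carbon monoxide.

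The deposited values are log2 values from which the median of the 4 WT arrays was taken for each probe set. They show how far an array lay above or below the WT median and not how much transcript was present. All differences below are IE-Cpr-null minus WT on the log2 scale, and WT 1 to 4 and null 1 to 4 name the arrays by their number in the labels. The test was limma fitted to all 18443 probe sets, with p-values adjusted over all of them and a threshold of 0.05. Intervals are 95% intervals of the difference from the same fit, not adjusted for the number of probe sets.

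No haem gene changed past the threshold. Of the 14 probe sets, 0 passed in limma, where 0.0217% of all probe sets on the array did. At an unadjusted p under 0.05 there were 3, against 7.40% of all probe sets: 1 of Cpox was higher (2.92% of all) and 1 each of Urod and Fech lower (4.47%). The 4 arrays of one genotype lay wholly apart from the other 4 in 1 probe set, that of Urod, against 4.11% of all probe sets. None (0) lay apart with IE-Cpr-null higher, against 1.64%. Of the haem probe sets 7 had a difference above 0 and 7 below 0, where of all 18443 there were 10609 above and 7834 below. With the probe sets of each gene averaged, 4 genes had values above WT and 5 below, and the median of their differences was -0.053, where that over all 10401 genes was 0.016. Of the 9 genes 0 passed (0.0288% of all genes), 2 had an unadjusted p under 0.05 in limma (8.69%), namely Cpox and Urod, and 1 had separate groups (4.85%). The genes did not move as a block along the pathway: Alas1, Alad and Cpox were the highest in IE-Cpr-null, Urod and Uros the lowest, and the remaining differences were smaller.

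**Figure D1:**
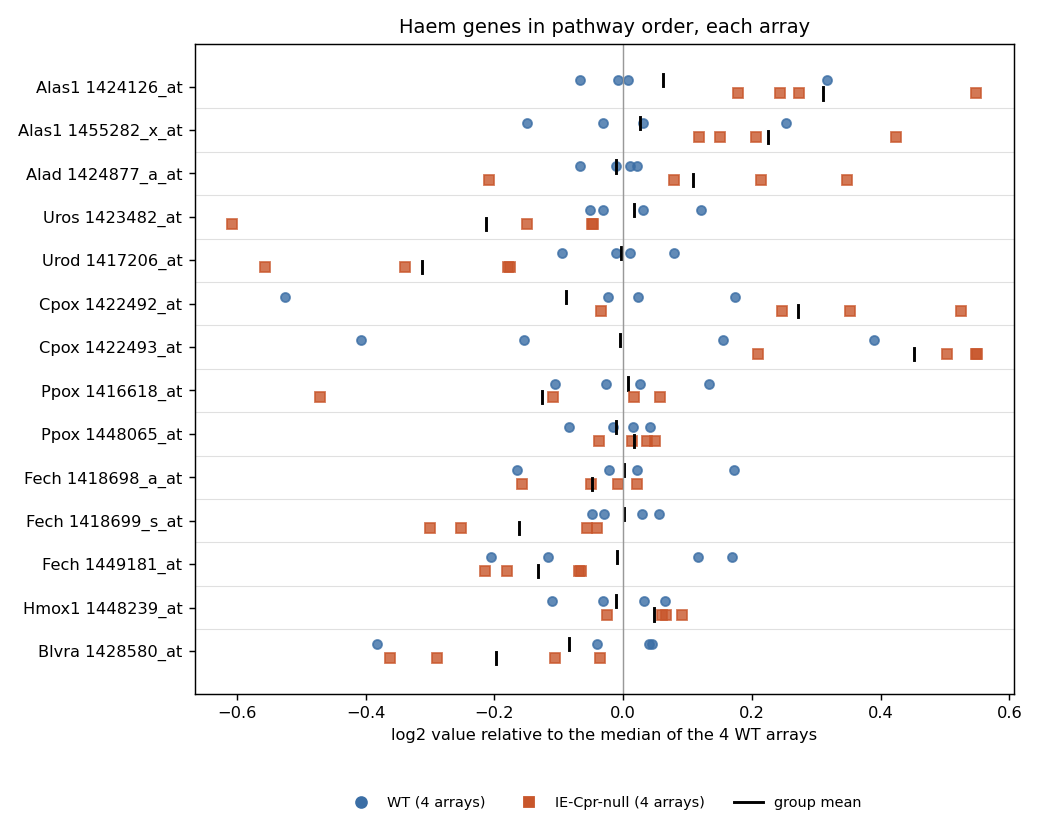
Values of the 14 haem gene probe sets on each of the 8 arrays, in pathway order from Alas1 to Blvra. The x axis is the log2 value with each probe set's WT median at 0, circles are WT arrays, squares are IE-Cpr-null arrays and black bars are group means. The groups lie apart only for Urod, where WT arrays start at -0.095 and IE-Cpr-null arrays end at -0.18.

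Stretches of DNA before the start sites are shown for the genes with the largest differences in opposite directions, Urod and Cpox, and for the genes whose promoter held a match for nuclear respiratory factor 1 (NRF1), a transcription factor of mitochondrial genes that is known to act on Alas1 in the rat. The RefSeq promoter table, on build GRCm38.p6, held 10 start sites of 7 of the 9 genes, all but Fech and Hmox1. In the 250 bases before each start, 4 motifs were searched on both strands: GCGCN followed by TGCGC for NRF1, GGGCGG for the GC box, GCGTG for the core bound by the aryl hydrocarbon receptor, and TGACNNNGC for the antioxidant response element. All stretches run 5′ to 3′ on the gene's strand, which is the minus strand except for Cpox. The first 3 are 30 bases long around the NRF1 match, at chr9:106247935-106247964, chr9:106247906-106247935 and chr7:133709323-133709352, with the match in capitals.
Alas1, match 1: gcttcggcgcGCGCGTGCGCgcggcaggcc
Alas1, match 2: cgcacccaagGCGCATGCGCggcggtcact
Uros: cggtcacactGCGCCTGCGCgagtcccgcc
The next are the 150 bases before the start of Urod (chr4:116994414-116994563), with a GC box on the opposite strand in capitals, and of Cpox (chr16:58670058-58670207), with an aryl hydrocarbon receptor core in capitals.
Urod: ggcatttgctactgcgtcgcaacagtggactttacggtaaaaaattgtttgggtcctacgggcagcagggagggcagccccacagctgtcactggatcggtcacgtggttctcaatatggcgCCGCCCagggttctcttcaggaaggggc
Cpox: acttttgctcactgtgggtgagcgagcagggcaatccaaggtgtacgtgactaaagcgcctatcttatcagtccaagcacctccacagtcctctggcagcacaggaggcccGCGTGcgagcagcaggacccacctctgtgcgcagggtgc

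The NRF1 letters stood before 2 of the 10 haem start sites and before 3.74% of all 32851 start sites in the table. Alas1 held them at -224 and -195 from its downstream start. Because the table's other Alas1 start lies 224 bases upstream, these matches begin at positions 1 and 30 counted from that start. The aryl hydrocarbon receptor core at -222 lies inside the first Alas1 match. The GC box stood before 5 of the 10 haem starts (32.7% of all starts), the aryl hydrocarbon receptor core before 4 (28.2%), and the antioxidant response element before 1, that of Blvra (10.2%). Matches describe letters only, and no binding was measured here.

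Alas1, whose product joins glycine to succinyl-CoA in the first step, was higher on the IE-Cpr-null arrays, but not past the threshold. In probe set 1424126_at, WT 1 to 4 read -0.0074, 0.32, -0.067 and 0.0074, and null 1 to 4 read 0.18, 0.55, 0.27 and 0.24. All 4 IE-Cpr-null arrays lay above 3 of the WT arrays, while WT 2 lay among them, so the groups overlapped. The group means were 0.0625 ± 0.173 (SD, n = 4) in WT and 0.311 ± 0.163 (SD, n = 4) in IE-Cpr-null. The difference was 0.25 (SE 0.11, limma adjusted p = 0.694), or 1.19-fold, with a 95% interval of 0.995-fold to 1.42-fold. That interval includes no difference.

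The second Alas1 probe set, 1455282_x_at, gave the same picture. WT 1 to 4 read 0.031, 0.25, -0.15 and -0.031, and null 1 to 4 read 0.21, 0.42, 0.12 and 0.15. Its difference was 0.20 (SE 0.101, limma adjusted p = 0.753). The root-mean-square gap between the 2 Alas1 probe sets over the 8 arrays was 0.0887, smaller than either SD between WT arrays. Null 2, the highest array in both, was also the array richest in hepatocyte transcripts, where the mean of 10 hepatocyte genes was 5.90, against 3.64 on null 3 and -0.048 to 0.18 on the other 6 arrays. Without null 2 and null 3 the Alas1 differences were 0.15 in each probe set. WT 2, the highest WT array, held more smooth muscle and stromal transcripts (2.37) than any array but null 1 (5.55), and without both arrays the Alas1 differences were 0.38 and 0.28. The part of these cells in the Alas1 values was not tested.

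Among 16687 probe sets of other genes, those nearest to Alas1 in their values over the 8 arrays belonged to Pklr, the pyruvate kinase of liver and red cells, to Slc25a44, a mitochondrial carrier, and to Smpdl3b, a phosphodiesterase. Their root-mean-square gaps to 1424126_at were 0.081 for Pklr, 0.0817 for Slc25a44 and 0.0824 for Smpdl3b. For 1455282_x_at the nearest were Slc30a1 (0.0672), Thap7 (0.0742) and Col20a1 (0.0779), so that the 2 probe sets shared no nearest gene.

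Alad, which joins a pair of aminolaevulinate molecules into the pyrrole porphobilinogen, was spread widely among the IE-Cpr-null arrays. WT 1 to 4 read -0.011, 0.011, -0.066 and 0.022, a narrow range, and null 1 to 4 read -0.21, 0.35, 0.21 and 0.078. Of the IE-Cpr-null arrays 3 lay above every WT array and 1, null 1, below every WT array. The difference was 0.12 (SE 0.111, limma adjusted p = 0.86). The 2 highest arrays were those rich in hepatocyte transcripts, and without them the difference was -0.054, so its direction rested on them. Without the muscle-rich arrays it was 0.23. The part of hepatocyte and muscle RNA in the Alad values was not tested.

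Uros closes the porphyrin ring by making uroporphyrinogen III. On WT 1 to 4 it read 0.031, -0.031, 0.12 and -0.052, and null 1 to 4 read -0.61, -0.15, -0.048 and -0.047. Null 1 stood far below the rest, and null 3 and null 4 lay within the WT range. The difference was -0.23 (SE 0.127, limma adjusted p = 0.785). It was -0.098 without null 1, -0.11 without the muscle-rich arrays null 1 and WT 2, and -0.34 without the hepatocyte-rich arrays.

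Urod, which trims uroporphyrinogen to coproporphyrinogen in the cytosol, showed the clearest separation of the genotypes. WT 1 to 4 read 0.079, 0.011, -0.095 and -0.011, and null 1 to 4 read -0.18, -0.56, -0.18 and -0.34. Every IE-Cpr-null array lay below every WT array, which was so in 2.47% of all probe sets. The group means were -0.0039 ± 0.0715 (SD, n = 4) in WT and -0.312 ± 0.18 (SD, n = 4) in IE-Cpr-null. The difference was -0.31 (SE 0.0908, limma adjusted p = 0.447), or 0.808-fold, with a 95% interval of 0.697-fold to 0.935-fold. It did not pass the threshold over all probe sets.

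The Urod difference was negative in every setting run, those that left out arrays included. It was -0.25 without the hepatocyte-rich arrays, -0.35 without the muscle-rich arrays and -0.34 without WT 3. WT 3, the lowest WT array for Urod, was also the WT array poor in pancreatic acinar transcripts, with a mean of -4.80 over 10 genes. The other WT arrays ran from -0.64 to 1.52 and the IE-Cpr-null group from -5.07 to -2.0, and the part of acinar cells in the haem genes was not tested. With limma's array weights, which gave null 4 a weight of 6.49 and null 1 one of 0.329, Urod was called (difference -0.33, adjusted p = 0.0321). That setting called 741 probe sets, 4.02% of all. Over all settings run for it, the adjusted p of Urod ran from 0.0321 to 0.97.

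Cpox, the mitochondrial oxidase that turns coproporphyrinogen into protoporphyrinogen, had the largest difference of the 9 genes and also the largest spread. In probe set 1422493_at, WT 1 to 4 read -0.41, 0.39, -0.15 and 0.15, and null 1 to 4 read 0.55, 0.50, 0.21 and 0.55. Of the IE-Cpr-null arrays 3 lay above all WT arrays, and null 3 lay below WT 2. The difference was 0.46 (SE 0.174, limma adjusted p = 0.606), or 1.37-fold, with a 95% interval of 1.04-fold to 1.82-fold.

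In the other Cpox probe set, 1422492_at, WT 1 to 4 read 0.023, 0.17, -0.53 and -0.023, and null 1 to 4 read 0.52, 0.25, -0.035 and 0.35. The difference was 0.36 (SE 0.173, limma adjusted p = 0.725). The 2 Cpox probe sets agreed less well than those of Alas1, with a root-mean-square gap of 0.266, and disagreed most on WT 1 and WT 3. In 1422492_at the lowest array was WT 3, poor in acinar transcripts, and without it the difference was 0.21. In 1422493_at the same step gave 0.41. Without the hepatocyte-rich arrays, which include the low null 3, the differences were 0.53 in 1422492_at and 0.55 in 1422493_at. Urod and Cpox, neighbours in the pathway, thus differed in opposite directions, neither past the threshold.

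**Figure D2:**
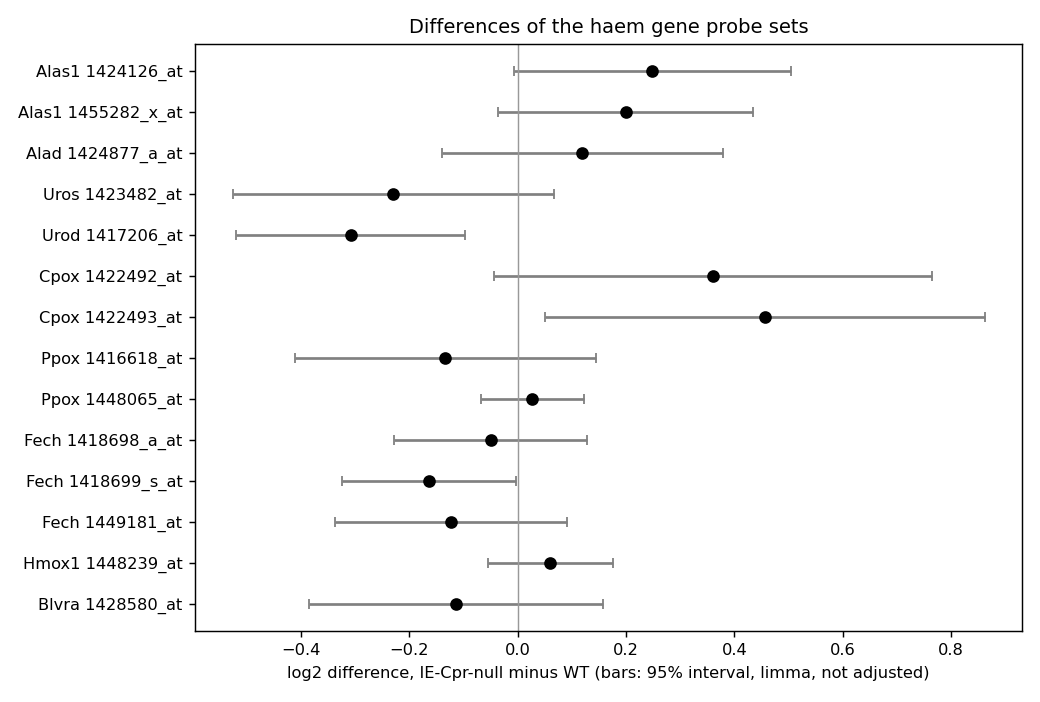
Difference of each haem gene probe set, IE-Cpr-null minus WT, on the log2 scale, with points for the estimate and bars for the 95% interval from limma, not adjusted over probe sets. The interval of Urod (-0.52 to -0.097) and that of Fech 1418699_s_at (-0.32 to -0.0030) lie wholly below 0, that of Cpox 1422493_at (0.051 to 0.86) wholly above, and that of Hmox1 is among the shortest.

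Ppox, which oxidises protoporphyrinogen to protoporphyrin, had probe sets that behaved unlike each other. In 1416618_at, WT 1 to 4 read 0.13, 0.026, -0.11 and -0.026, and null 1 to 4 read -0.47, 0.017, 0.057 and -0.11. Only null 1 lay clearly below the WT arrays, and the difference of -0.13 (SE 0.12, limma adjusted p = 0.86) was -0.019 without it. Without the hepatocyte-rich arrays it was -0.30. In 1448065_at all 8 arrays lay between -0.084 and 0.05, with a difference of 0.027 (SE 0.0407, limma adjusted p = 0.86). Null 1 was thus the lowest array for Alad, Uros and Ppox 1416618_at, and it was also the lowest for Fech 1418699_s_at. In both Cpox probe sets, Ppox 1448065_at and Hmox1, null 1 was the highest array. That array was the one richest in muscle and stromal transcripts, whose part in these values was not tested.

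Fech, the ferrochelatase of the last step, was lower by a small margin in all of its 3 probe sets. In 1418699_s_at, WT 1 to 4 read 0.055, -0.048, 0.029 and -0.029, and null 1 to 4 read -0.30, -0.25, -0.040 and -0.057. Null 1 and null 2 were lowest, 3 of the 4 IE-Cpr-null arrays lay below all WT arrays, and null 3 lay just inside the WT range. The difference was -0.16 (SE 0.0689, limma adjusted p = 0.672), or 0.893-fold. In 1449181_at the WT arrays ran from -0.20 to 0.17 and the IE-Cpr-null arrays from -0.21 to -0.065, and in 1418698_a_at from -0.16 to 0.17 and from -0.16 to 0.022. Their differences were -0.12 (SE 0.0917) and -0.050 (SE 0.0762), with limma adjusted p = 0.86 in each. The last of these was 0.0066 without WT 1, which carried the highest value of that probe set.

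Hmox1, the inducible haem oxygenase, which itself needs electrons from Cpr, differed by less than the spread between arrays. WT 1 to 4 read 0.032, 0.064, -0.032 and -0.11, and null 1 to 4 read 0.091, 0.067, -0.025 and 0.061. The groups overlapped on a narrow scale. The difference was 0.060 (SE 0.0496, limma adjusted p = 0.86), or 1.04-fold, with a 95% interval of 0.962-fold to 1.13-fold. This short interval has to be read with the probe set's profile. Hmox1 had the sign of the array's own median on all 8 arrays, as did Ppox 1448065_at and Cpox 1422492_at, and 2844 of 16688 probe sets of other genes lay within a root-mean-square gap of 0.05 of it. The nearest were those of Suz12 (0.0148), Diaph3 (0.017) and Atl3 (0.0173). The Ppox probe set 1448065_at was alike in this, with 3306 probe sets within that gap, whereas each of the other 12 haem probe sets, Cpox 1422492_at among them, had at most 14. Whether Hmox1 signal stood above background cannot be told from centred values.

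Blvra, which reduces biliverdin to bilirubin, was low on arrays of both genotypes. Arrays WT 1 to 4 read -0.38, -0.040, 0.045 and 0.040, and null 1 to 4 read -0.29, -0.36, -0.035 and -0.11. WT 1 was the lowest of all 8. The difference was -0.11 (SE 0.116, limma adjusted p = 0.86), and -0.21 without WT 1. Of the further enzymes of this pathway, Hmox2, the constitutive haem oxygenase, differed by -0.046 (SE 0.050) and Blvrb, a second biliverdin reductase, by 0.061 (SE 0.094), with limma adjusted p = 0.86 in each.

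The genes around the pathway were read in 8 lists with 103 symbols, of which 83 were measured by 136 probe sets. None (0) of the 136 passed in limma. At an unadjusted p under 0.05 there were 28, 11 higher and 17 lower, against 7.40% of all probe sets, and the groups lay apart in 21, 8 higher and 13 lower, against 4.11%. The median difference over the 136 was -0.021, and 0.016 over all probe sets. The shares with an unadjusted p under 0.05 and with separate groups were thus above those of the array. The P450 list held 10 of the 28 and 8 of the 21, the carriers 6 and 4, and the regulators 6 and 5. Those 5 were all probe sets of Ppargc1a. The lists were chosen with earlier results of these data known, so no conclusion is drawn from the excess.

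**Figure D3:**
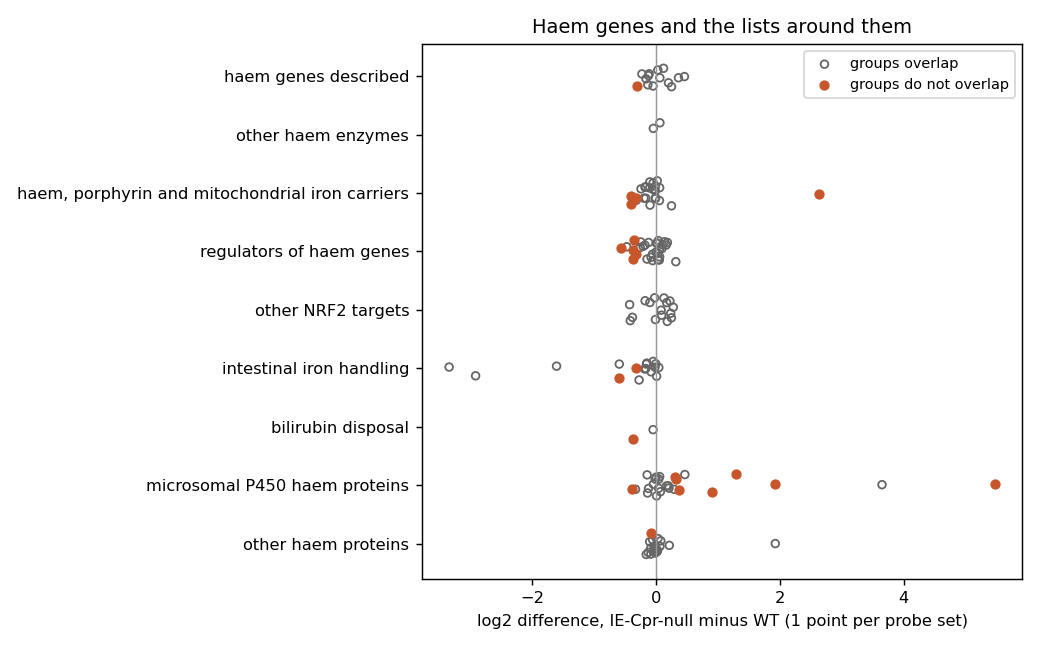
Differences, IE-Cpr-null minus WT on the log2 scale, of the 14 haem gene probe sets and of the probe sets in 8 lists of related genes, with 1 point per probe set. Filled points are probe sets in which the arrays of the genotypes do not overlap. The haem genes lie within -0.31 to 0.46, while single points of the carrier and P450 lists reach 2.63 (Flvcr2) and 5.47 (Cyp1a2).

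Among carriers of haem, porphyrins and mitochondrial iron (16 genes, 24 probe sets), 19 probe sets were lower and 5 higher, with a median of -0.075. Flvcr2, a carrier of the FLVCR family, stood apart from them. WT 1 to 4 read -0.71, 0.70, 0.58 and -0.58, and null 1 to 4 read 2.19, 3.13, 1.72 and 3.47. All IE-Cpr-null arrays lay far above all WT arrays, with a difference of 2.63 (SE 0.492, 6.18-fold), yet it missed the threshold (limma adjusted p = 0.251). It was 2.83 without the hepatocyte-rich and 3.01 without the muscle-rich arrays.

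Slc46a1, the intestinal folate transporter first described in the mouse duodenum as a haem carrier, was lower in both of its probe sets with no overlap. In 1426715_s_at, WT 1 to 4 read -0.058, 0.076, -0.19 and 0.058, and null 1 to 4 read -0.56, -0.24, -0.62 and -0.32. The differences were -0.41 in each (SE 0.102 and 0.128, limma adjusted p = 0.343 and 0.484). Tspo, an outer mitochondrial membrane protein that binds porphyrins, was lower in all 3 probe sets, with groups apart in 1416695_at, where WT arrays ran from -0.032 to 0.12 and IE-Cpr-null arrays from -0.39 to -0.18. That difference was -0.32 (SE 0.0581, limma adjusted p = 0.244).

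Of the 15 regulators (30 probe sets, 14 higher and 16 lower, median -0.029), Ppargc1a had groups that did not overlap. It encodes PGC-1α, a coactivator that raises Alas1 in fasted mouse liver and works with NRF1, whose letters stand in the Alas1 stretches above. In 1460336_at, WT 1 to 4 read -0.28, 0.20, -0.048 and 0.048, and null 1 to 4 read -0.68, -0.75, -0.45 and -0.45. All IE-Cpr-null arrays were below all WT arrays in this probe set and in the other 4 of the gene, with differences from -0.56 to -0.32 (limma adjusted p from 0.252 to 0.412). These 5 probe sets measured the same RNA and are not independent. The group means of Ppargc1a and Alas1 thus differed in opposite directions, neither past the threshold. WT 2, the highest WT array for Alas1, was also the highest in Ppargc1a 1460336_at. It was the lowest WT array in 1434099_at (-0.062), 1434100_x_at (-0.076) and 1456395_at (-0.098), and read -0.0036 in 1437751_at. The probe sets of Nrf1 differed by 0.18, -0.0020 and 0.093. Those of Ahr, the aryl hydrocarbon receptor, differed by -0.059 and 0.052. The groups overlapped in all of these Nrf1 and Ahr probe sets.

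The intestinal iron list (10 genes, 17 probe sets) had 15 probe sets lower and 2 higher, with a median of -0.17. Epas1, which encodes HIF-2α, the factor that drives iron uptake genes in the mouse duodenum, read -0.029, 0.029, -0.27 and 0.12 on WT 1 to 4 and -0.72, -0.51, -0.91 and -0.43 on null 1 to 4. Its groups lay apart, with a difference of -0.61 (SE 0.126, limma adjusted p = 0.291). Ireb2, the iron regulatory protein 2, differed by -0.32 (SE 0.0924, limma adjusted p = 0.432), with WT arrays from -0.031 to 0.20 and IE-Cpr-null arrays from -0.49 to -0.089. Acinar transcripts, from the pancreas beside the duodenum, were also lower on the IE-Cpr-null arrays, as given above for Urod, and their part in the iron genes was not tested.

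In the P450 list, 19 of 26 probe sets were higher and 7 lower, with a median of 0.12. The median size of the difference, without regard to sign, was 0.20 over these 26 probe sets and 0.15 over the 14 haem probe sets. Over all probe sets on the array, from which dim ones were not removed, it was 0.062. A few P450 genes lay far outside that: the difference was 5.47 for Cyp1a2 (SE 0.591, limma adjusted p = 0.0677), 1.91 for Cyp1a1 (SE 0.26, limma adjusted p = 0.125) and 1.29 and 0.90 in 2 of the 3 probe sets of Cyp51, against 0.46 for Cpox 1422493_at, the largest of the haem genes. Cyp2e1, also in the hepatocyte list, differed by 3.65 (SE 1.82, limma adjusted p = 0.745) with groups that overlapped. It read 8.11 and 6.06 on the hepatocyte-rich null 2 and null 3, and 0.37 and 0.017 on null 1 and null 4. Cyp1a2 read 5.19 and 5.49 on null 1 and null 4, and its difference was 5.32 without the hepatocyte-rich arrays. That of Cyp1a1 was 1.65 without them. The part of hepatocyte RNA in the P450 values was not tested. Cyp2d26 differed by -0.39 (SE 0.0496, limma adjusted p = 0.117). Among 11 further haem proteins (19 probe sets, 7 higher and 12 lower, median -0.023), 1 had groups that did not overlap, near the 4.11% of all probe sets. It was 1 of the 2 probe sets of Sdhd, a haem-binding subunit of complex II, where the lowest WT array (-0.0133) and the highest IE-Cpr-null array (-0.0136) all but touched and the mean difference was -0.088 (SE 0.0426, limma adjusted p = 0.733). Of the NRF2 targets that often move with Hmox1 (8 genes, 16 probe sets, 9 higher and 7 lower, median 0.084), 0 had separate groups (4.11% of all probe sets) or an unadjusted p under 0.05 in limma (7.40%), which in 16 probe sets is near those shares. Abcc2, the exporter of conjugated bilirubin, differed by -0.38 (SE 0.138, limma adjusted p = 0.572). Its groups lay apart (4.11% of all probe sets), but the lowest WT array (-0.1181) and the highest IE-Cpr-null array (-0.1187) all but touched. The other measured gene of bilirubin disposal had groups that overlapped.

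The haem genes were also read array by array. Of the 9 genes, 6, 7, 2 and 3 lay above 0 on WT 1 to 4, and 3, 5, 4 and 4 on null 1 to 4. The medians of all probe sets were 0.031, 0.015, -0.025 and -0.017 on WT 1 to 4. On null 1 to 4 they were 0.036, 0.019, -0.013 and 0.014. Urod was the lowest gene on null 2, null 3 and null 4, and Uros on null 1. Cpox was the highest gene on null 1 and null 4, Alas1 on null 2 and Alad on null 3. No IE-Cpr-null array therefore had the pathway wholly raised or lowered.

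Markers of other cells set limits to these values. Hepatocyte and muscle transcripts were high on single arrays, as given above. Macrophage and dendritic markers, whose cells are known for HMOX1, ran from -0.38 to 0.66 in WT and from -0.99 to -0.24 in IE-Cpr-null over 8 genes, and their part in the Hmox1 values was not tested. Of the erythroid list, whose cells make the most haem, 3 of 14 symbols were measured, and their mean ran from -0.075 to 0.065 in WT and from -0.035 to 0.11 in IE-Cpr-null. Lymphocyte markers (5 genes) ran from -0.10 to 0.051 and from -0.051 to 0.27, and the single endothelial gene from -0.050 to 0.060 and from -0.013 to 0.080. Enterocyte markers (9 genes) ran from -0.11 to 0.022 and from -0.065 to 0.017. Centred values cannot show whether a marker is present, so the labelled cell type was not checked by its level, and fewer cells of a type cannot be told apart from less RNA per cell.

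**Figure D4:**
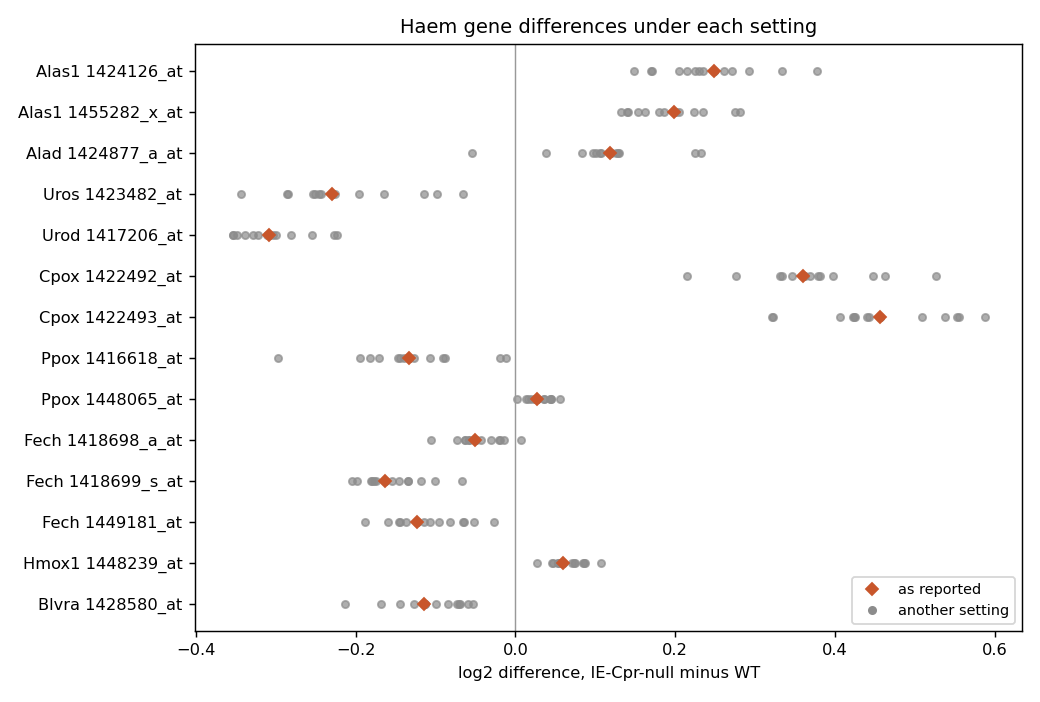
Differences of the 14 haem gene probe sets, IE-Cpr-null minus WT on the log2 scale, as reported (diamonds) and under the other settings (circles: other normalizations, weights and blocks, and arrays left out). Urod stays between -0.35 and -0.22, the Cpox and Alas1 probe sets stay above 0, and Alad and Fech 1418698_a_at each cross 0 in 1 setting.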

How the data were processed

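GCRMA was applied to the single-colour arrays by the authors, per the submitters' processing notes, in a version not given in the sources used here. What they deposited were log2 values for 18443 probe sets on 8 arrays. The values show that each probe set had been centred, since the median of its 4 WT arrays was 0 within 1e-06. Signal over background is therefore unknown, dim probe sets were not removed, and the number of arrays limits the precision. Sample titles gave the groups and the replicate numbers. No label says which littermates were pooled, and the errors measure the spread between pools.

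Probe sets were named from the platform annotation: 16689 carried 1 symbol (10401 genes), 616 several and 1138 were not named. All 9 haem symbols are current in the RefSeq gene table. Every probe set was tested in limma 3.58.1 (R 4.3.3, lmFit and eBayes with a constant prior of 1.54 degrees of freedom, two-sided), with 2 group means, no block, and Benjamini-Hochberg adjustment over the 18443 probe sets. The fit was checked on simulated data with changes larger than any haem gene difference, which does not show what it can detect at the sizes reported here.

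The members, the 8 gene lists and the 8 marker lists were chosen with earlier results of these data known. From each list, up to 4 genes with separate groups were named in order of p. The genes nearest to Alas1 and Hmox1 were those with the smallest root-mean-square difference over the arrays. The transcript of the deleted gene was not analysed here and cannot check the genotypes, nor was the enzyme that acts between Alad and Uros. Alternatives were quantile normalization, median centring, array weights, a replicate block, a robust prior, means per gene, probe sets without the suffixes of shared probes, a filter on SD, and arrays left out.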

Additional observations from a re-analysis of the deposited data

Results flagged for a closer look

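In Cpox probe set 1422493_at, null 3 read 0.21 while the other IE-Cpr-null arrays read 0.50 to 0.55. Its gap to the nearest of them was 0.864 of the group's range, above Dixon's critical value at the 95% level for 4 samples. Of 28 groups tested this way, 1 stood out, and chance gives about 1 in 20.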

How the results depend on the processing

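The count of haem gene probe sets past the threshold stayed at 0 under 17 of 18 alternatives, and array weights gave 1 (Urod, lower). With the replicate number as a block it was 0 of 14, and 1 probe set passed over the whole table against 4 without the block. Same-numbered arrays did not deviate together in every pair (r = -0.058, -0.041, 0.26 and 0.13 for numbers 1 to 4). WT 2 correlated best with null 1 (r = 0.34), and these are the muscle-rich arrays. Whether the numbers pair the samples cannot be told from these correlations. The median difference of the 9 genes was -0.053 and ran from -0.075 to -0.0015 with each array left out, was 0.0061 without the muscle-rich arrays, and was -0.11 without the hepatocyte-rich arrays and -0.12 with the SD filter. Alad turned to -0.054 without the hepatocyte-rich arrays. Fech 1418698_a_at ran from -0.11 to 0.0066 with each array left out, and Sdhd 1437489_x_at from -0.041 to 0.015, and Sdhd was 0.025 without the hepatocyte-rich arrays. Of the related lists 0 probe sets passed as reported, 17 with array weights (9 higher, 8 lower), 2 among probe sets with SD above the median, 1 without the hepatocyte-rich arrays, and 0 to 1 with each array left out. Outside array weights these calls were Cyp1a1 or Cyp1a2. Among all probe sets, 741 passed with array weights, 1 with quantile normalization, 7 with the SD filter, 16 without null 1, 7 without null 2 and 1 without WT 1, WT 2 or WT 4. The cause of these moves was not tested. Signal over background, which would limit dim probe sets, cannot be read from centred values.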

Other observations

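Among the iron genes, 2 that exceeded the haem enzymes in size were chosen after their values were seen. Slc40a1, which encodes ferroportin, the iron exporter of the enterocyte, read -8.80 on null 3 and -2.31 on null 2 in probe set 1448566_at, against -0.996 and -0.55 on null 1 and null 4 and -0.71 to 1.44 on the WT arrays (difference -3.34, SE 1.76, limma adjusted p = 0.774). Its second probe set, 1417061_at, also had its lowest value on null 3 (-7.58). Cybrd1, the ferric reductase of the duodenal brush border and itself a haem protein, read 0.28, 2.58, -1.06 and -0.28 on WT 1 to 4 and -1.25, -1.04, -1.36 and -1.26 on null 1 to 4 (difference -1.61, SE 0.702, limma adjusted p = 0.687). WT 2, the highest, had the highest acinar mean (1.52), and WT 3, the WT array within the IE-Cpr-null range, the lowest WT acinar mean (-4.80). WT 1 and WT 4 stood in the reverse order, with acinar means of -0.64 and 0.60 beside Cybrd1 at 0.28 and -0.28. Null 3 and null 4 had acinar means of -5.07 and -4.95 beside Slc40a1 1448566_at at -8.80 and -0.55. The part of acinar cells in these values was not tested.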
